A study of Gallus gallus with 4 samples.

Results

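Solute carriers are membrane proteins that move sugars, amino acids, ions, metals, vitamins and metabolites across the cell surface and the membranes of organelles. Their gene symbols begin with SLC, or SLCO for the organic anion transporters, and the number after it names the family. In liver they take up nutrients and bile acids from blood, release glucose and metals, and feed the mitochondria. The genes described here are those with such a symbol among the probes that carry a RefSeq accession, leaving out SLC4A1, SLC5A1, SLC9A2, SLC7A9, SLC15A1 and SLC1A3. Of 5382 genes named on the array, 88 met this rule. Where a group had a probe of the gene clearly over background on each of its arrays, the gene counted as measured, as it did for 76 of the 88, out of 4872 measured genes in all. By symbol SLC7A6OS and SLC9A3R1 belong to the 76, though the first is named for lying opposite SLC7A6 and the second encodes a scaffold protein that binds transporters.

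The arrays held liver RNA of coloured broiler chickens 35 days old, from group 1, labelled high, and group 2, labelled low, with 2 one-colour arrays each. In the labels the words high and low stand beside feed efficiency and also beside residual feed intake, which usually run opposite, so it is unsettled which birds were the efficient ones. Group 2 served as the control in the study's design text. The design text describes pools of RNA from 4 to 5 birds per group, divided in duplicate. The arrays of group 1 and the first of group 2 are labelled female, and the second of group 2 as 1 male and 1 female, so the group 2 arrays did not hold the same RNA. How many birds each array stands for is not given, and p-values measure only the spread between these samples, which may be technical in group 1. No other treatment or genotype is given, and the protocol describes caged birds with free feed and water, a starter ration up to week 4 and a finisher ration after it.

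Of the 4 arrays, group 2 replicate 1 stood apart on the sex chromosomes and went against its label. The W-linked gene HINTW had a median log2 signal of 6.16 and 5.98 in group 1, against -3.85 and 5.87 in group 2. Against each probe's level on the other arrays, Z-linked probes had a median of -0.16 and -0.19 on the group 1 arrays and of 0.50 and -0.16 on those of group 2. Group 2 replicate 2, labelled as mixed, thus read close to the group 1 arrays, and the male of its label was not apparent. The called genes and some others are therefore also given without group 2 replicate 1. A value given only with all 4 arrays may still depend on that array. For SLC35G2, SLC7A5, SLC45A2 and SLC47A1, among others, the group 2 arrays lay on either side of the group 1 mean. All 9 measured hepatocyte markers were well above background on every array, and their median difference was 0.05. In bulk tissue, fewer cells of a type and less RNA per cell cannot be told apart.

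Signals are log2 intensities from which the 75th percentile of the array was subtracted, so that 0 marks that percentile. They are compared within a probe and not between genes. A gene is represented by its brightest probe, and a difference is group 1 minus group 2 in log2 units with its SE and n = 2 arrays per group. It passed the test where limma's moderated test, adjusted with Benjamini-Hochberg over all probes, gave a value under 0.05.

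Among the 76 measured SLC genes 3 were higher and 2 lower in group 1. SLC34A2, which brings phosphate into cells with sodium, and the potassium-dependent sodium-calcium exchangers SLC24A5 and SLC24A1 were higher. SLC7A2, a carrier of arginine and other cationic amino acids, and the magnesium transporter SLC41A2 were lower. Of all 4872 measured genes 5.75% were called higher and 3.92% lower, and the SLC genes together had 6.58% called, against 9.67% of all genes. At an unadjusted p under 0.05 there were 18 higher and 15 lower SLC genes, together 43.4% of the 76. Of all genes 19.1% were higher and 12.5% lower at that level, together 31.6%. The median difference of the 76 was 0.13, beside 0.14 for all genes, and 42 lay above 0. The groups did not overlap for 29 genes with group 1 above and for 24 with group 1 below, together 69.7% of the 76. All genes had 40.3% and 27.8%, together 68.1%. Scaling on array medians instead moved the differences by a median of -0.21, left 33 SLC genes above 0, put the median of all genes and that of the SLC genes at -0.08 each, and called 2 SLC genes higher and 10 lower. Median scaling called 10.4% of all genes. Quantile normalization gave 1 higher and 3 lower SLC genes, with 8.42% of all genes called. Without group 2 replicate 1, 11 SLC genes were called higher and 8 lower, when 21.3% of all genes were called, and without group 2 replicate 2 the counts were 9 and 9, with 23.4% of all genes. With an array of group 2 left out, its lone array is assumed to vary like the group 1 pair, which was the tighter one, so a smaller p there is no sign of stability. With a group 1 array left out, the wider group 2 pair alone gave the spread for all genes. A miss of the threshold there is not particular to the SLC genes. Their median was 0.04 without group 1 replicate 1 and 0.08 without group 1 replicate 2, beside 0.09 and 0.17 for all genes.

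**Figure D1:**
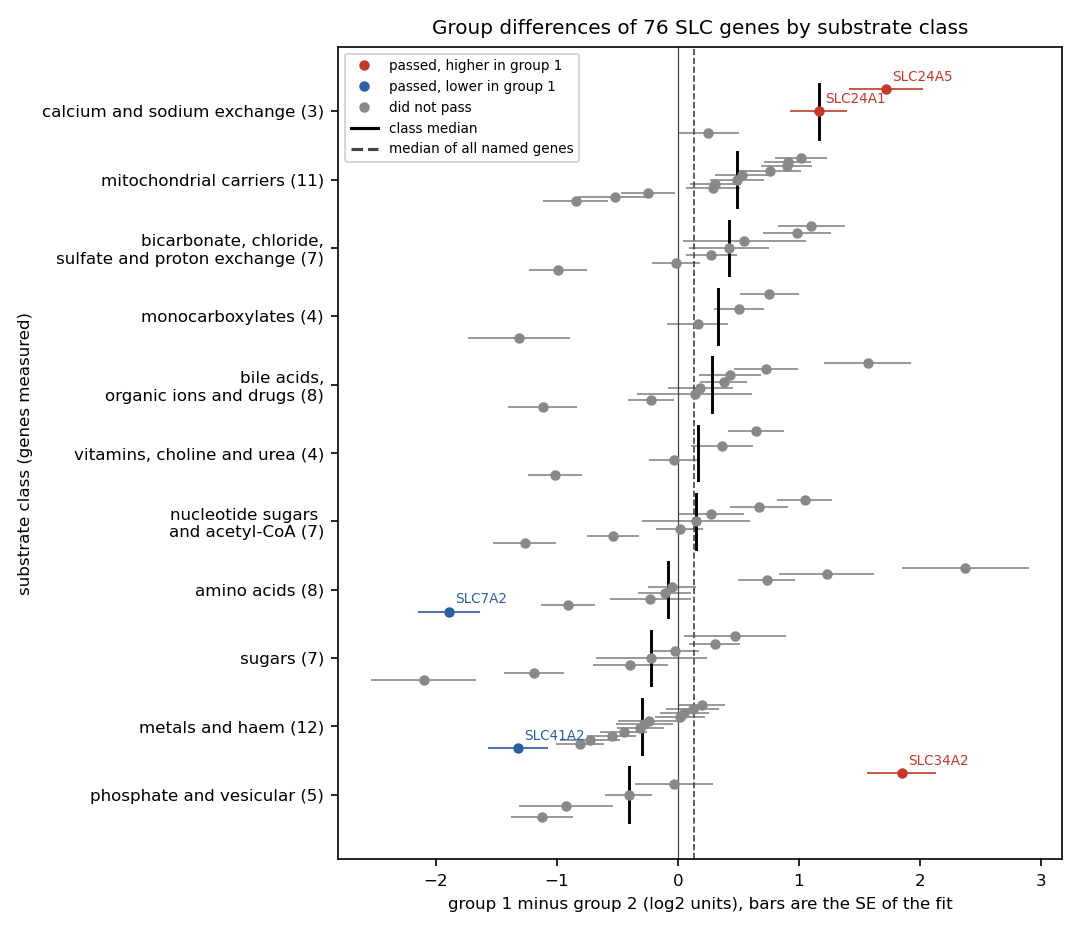
Difference between group 1 and group 2 in log2 units (x axis) for 76 SLC genes, sorted by substrate class (y axis). Points are fitted differences of the brightest probe with their SE, colour marks the 5 genes past the test, black bars are class medians, and the dashed line is the median of all genes at 0.14. SLC34A2 stands at 1.85 at the right of its class, whose other members lie below 0.

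Among sodium-phosphate and vesicular carriers, SLC34A2 had signals of -3.38 and -3.42 in group 1, against -4.94 and -5.56 in group 2. The groups were well apart, and the last of these arrays was not well above background. The difference was 1.85 ± 0.28 (limma, adjusted p = 0.0334), and 2.16 without group 2 replicate 1. The latter value rests on the group 2 array where the probe was not well above background. The probe passed the filter through group 1, where it was high, and on probes well above background on all 4 arrays SLC34A2 read -0.05 and was not called. This gene is known from the epithelium of gut and lung, and its probes did not agree. A second probe read -3.51 and -5.58 in group 1, against -3.64 and -5.36 in group 2, and differed by -0.05 ± 0.91. The third was not well above background in group 1, and its group 2 mean was at least 2.85-fold that of group 1 (limma, adjusted p = 0.0471). That probe passed the filter through group 2, where it was high. The mean over the 3 probes gave -0.41 (adjusted p = 0.534). The direction of SLC34A2 thus depends on the probe.

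Some markers of intestinal epithelium differed between the groups. Of all genes 5.75% were called higher and 3.92% lower, and of the 12 measured markers 7 and 0, with a median difference of 2.17. Their summed linear signal, in units of the 75th percentile, was 372 to 463 in group 1 and 365 to 369 in group 2. ANPEP and APOA4, which liver also expresses, were the brightest of them. All 12 were well above background on both group 1 arrays, against 7 and 8 on the group 2 arrays. RBP2, FABP2, CDX2 and CDH17 were below that level on both group 2 arrays and MEP1A on the first, while CDX1, GUCA2B, VIL1, EPCAM and FABP6 were above it on both. RBP2, FABP2, CDX2, CDH17 and MEP1A were thus measured through group 1 only, which fixed their part in the group 1 count of 12. They are among the 7 called higher, with GUCA2B and VIL1. The filter thus favoured a higher value for them. The 7 calls and the median of 2.17 therefore cannot be weighed against the share over all genes. FABP6 and EPCAM ran the other way, by -0.71 and -0.25. The part of these markers in the signal of SLC34A2 was not tested.

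The other members of that class lay below 0 and did not pass. SLC17A9, which loads ATP into vesicles, had signals of -4.37 and -4.03 in group 1, against -2.88 and -3.28 in group 2, a difference of -1.12 (adjusted p = 0.0600). Differences were -0.92 for the acetylcholine carrier of vesicles SLC18A3, -0.40 for the lysosomal sialic acid exporter SLC17A5 and -0.03 for SLC18B1.

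Calcium and sodium exchangers gave 2 calls among only 3 measured genes, both higher, where 5.75% of all genes were called higher. SLC24A5, known from pigment cells, had signals of -1.30 and -1.88 in group 1, against -3.10 and -3.52 in group 2. SLC24A1, known from photoreceptors, had -2.21 and -1.81 in group 1, against -3.12 and -3.23 in group 2. In both, each group 1 array lay above each group 2 array. Without group 2 replicate 1 the differences were 1.93 for SLC24A5 and 1.22 for SLC24A1. Of the endothelial and stellate cell markers 3 of 6 were called higher, against 5.75% of all genes. The called ones were COL1A2, COL3A1 and DCN. ACTA2 (1.01) and the endothelial genes CDH5 (0.53) and KDR (0.26) were not called. The summed signal of these markers was 21.8 to 24.1 in group 1 and 6.21 to 7.58 in group 2. Their part in these genes was not tested. SLC24A5 differed by 1.72 ± 0.31 (limma, adjusted p = 0.0408), a 3.30-fold higher level in group 1. SLC24A1 differed by 1.16 ± 0.24 (adjusted p = 0.0497), or 2.24-fold, and was past the threshold by little. Its adjusted p was 0.0726 after quantile normalization, 0.0739 with median scaling, 0.0771 with the replicate number as a block and 0.0519 without group 2 replicate 2. SLC24A5 missed the threshold after quantile normalization (adjusted p = 0.0528). SLC24A2, on chromosome Z of the assembly GRCg7b, differed by 0.25 ± 0.25, and its arrays overlapped. Each called exchanger had a single kept probe.

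Amino acid carriers numbered 8, with 0 called higher and 1 lower, against 5.75% and 3.92% of all genes. SLC7A2 had signals of -2.71 and -2.47 in group 1, against -0.93 and -0.48 in group 2. Both group 1 arrays thus lay well below both group 2 arrays. The difference was -1.89 ± 0.26 (limma, adjusted p = 0.0295), which makes the level 3.70-fold higher in group 2. It passed with quantile normalization (adjusted p = 0.0335) and median scaling (0.0297), but not without the filter on dim probes (0.0501). Without group 2 replicate 1 its difference was -2.12.

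SLC7A1, a second cationic amino acid carrier, stood on the other side, with -3.27 and -3.18 in group 1, against -3.94 and -4.97 in group 2. It differed by 1.23 ± 0.39 and did not pass (adjusted p = 0.104). SLC38A4, which takes up small neutral amino acids in mammalian liver, had 3.32 and 3.33 in group 1, against 4.05 and 4.40 in group 2, a difference of -0.90 ± 0.22 (adjusted p = 0.0674). Its second probe differed by -0.63. SLC7A5, a carrier of large neutral amino acids, differed by -0.23 on its brightest probe and by 0.78 to 1.11 on the others, none past the test. SLC38A1 differed by -0.05 (95% interval -0.57 to 0.48) and SLC7A6OS by -0.11.

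SLC6A9, a glycine carrier that in mammals also serves haem synthesis in red cells, had the largest positive difference of all 76. It had signals of 1.92 and 1.78 in group 1, against -1.27 and 0.22 in group 2. The groups were apart, but the group 2 arrays differed by 1.48 from each other, more than for any other SLC gene. The difference of 2.38 ± 0.53 did not pass (limma, adjusted p = 0.0567), and it was 1.64 without group 2 replicate 1 and 3.12 without group 2 replicate 2. With either of these left out it passed (adjusted p = 0.0210 and 0.0134), when the group 1 pair alone, 0.15 apart, gave the spread. With the replicate block it passed by little (0.0499). Where 5.75% of all genes were called higher, 2 of 7 erythroid markers were. RHAG, 1 of these, was not well above background on group 2 replicate 1 and passed the filter through group 1. Of the 7 markers 6 lay above 0, with a median of 2.67. Their summed signal was 315 to 382 in group 1 and 40.4 to 143 in group 2, where the first array was the lower one for both SLC6A9 and the markers. The haemoglobin gene HBBA had 7.06 and 6.79 in group 1, against 3.67 and 5.69 in group 2, and did not pass (limma, adjusted p = 0.101). HBZ was the marker below 0, at -0.81. The part of red cells in the SLC6A9 signal was not tested. SLC6A4, the serotonin transporter, differed by 0.73 on its brighter probe. On its other probe, which was not well above background in group 2, it was at least 1.17-fold higher in group 1 (adjusted p = 0.0212). That probe passed the filter through group 1, where it was high, and its p rests on group 2 signals not well above background.

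**Figure D2:**
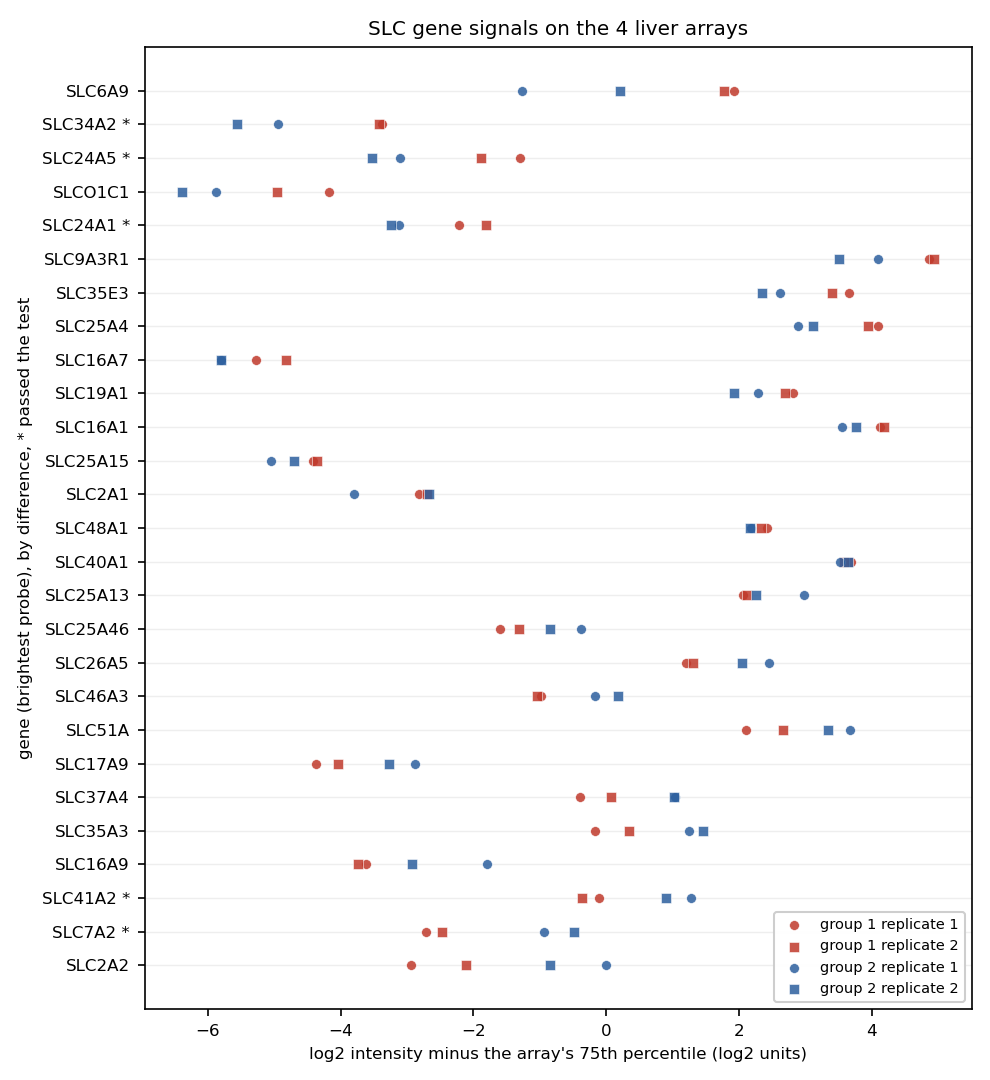
Signal on each of the 4 arrays (x axis, log2 intensity relative to the 75th percentile of the array) for the 27 genes named by rule (y axis), ordered by their group difference, with an asterisk on the 5 past the test. Group 1 arrays are red and group 2 arrays blue, and signals are comparable within a row only. SLC6A9 at the top shows the group 1 arrays at 1.92 and 1.78 and the group 2 arrays at -1.27 and 0.22.

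Sugar carriers gave 0 calls among 7 genes, where 9.67% of all genes were called. An unadjusted p under 0.05 was met by 0 higher and 2 lower, against 19.1% and 12.5% of all genes. SLC2A2, the glucose carrier through which liver takes up and releases glucose, had the most negative difference of the 76. It had signals of -2.93 and -2.11 in group 1, against -0.0036 and -0.84 in group 2. The groups did not overlap, but the arrays of each group lay 0.83 and 0.84 apart. The difference was -2.10 ± 0.43 and missed the threshold (limma, adjusted p = 0.0507). A second probe differed by -0.69 ± 0.39 (adjusted p = 0.272). SLC2A2 passed with median scaling (0.0472) and with an intensity trend (0.0363), and had -1.68 (adjusted p = 0.0602) without group 2 replicate 1 and -2.52 (0.0305) without group 2 replicate 2.

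SLC37A4 brings glucose 6-phosphate into the endoplasmic reticulum, where the last step of glucose output takes place. It had signals of -0.39 and 0.07 in group 1, against 1.04 and 1.02 in group 2. Its difference of -1.19 ± 0.25, from its only kept probe, was just short of the threshold as well (adjusted p = 0.0513). SLC2A1, the glucose carrier of most tissues, had -2.82 and -2.70 in group 1, against -3.80 and -2.67 in group 2. Only the first group 2 array lay apart, and the difference of 0.47 was -0.09 without it and 1.03 (adjusted p = 0.0348) without group 2 replicate 2. SLC2A8 differed by 0.31, SLC2A14 by -0.02, SLC45A2 by -0.22 and SLC37A3 by -0.39. A dimmer probe of SLC37A3 was called higher with 1.64 ± 0.33 (adjusted p = 0.0492), against the sign of the brighter one. That probe was not well above background on group 2 replicate 2 and passed the filter through group 1, where it was high.

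In the mitochondrial carrier family, SLC25, 8 of 11 measured genes lay above 0, where 58.5% of all genes did, with a median of 0.49 (0.27 with median scaling), and 0 passed the test. At an unadjusted p under 0.05 there were 4 higher and 1 lower, against 19.1% and 12.5% of all genes. The groups did not overlap for the 11, with 8 higher and 3 lower in group 1, where 68.1% of all genes did not overlap. The ADP/ATP carriers export ATP from mitochondria, and the phosphate carrier brings in the phosphate that ATP synthase uses. SLC25A4, an ADP/ATP carrier, had signals of 4.09 and 3.95 in group 1, against 2.89 and 3.12 in group 2, and differed by 1.02 ± 0.21 (limma, adjusted p = 0.0517). A second probe of SLC25A4 passed with 1.13 ± 0.20 (adjusted p = 0.0398), and a dimmer one differed by 0.0061. SLC25A3, the phosphate carrier, had 5.97 and 5.98 in group 1, against 5.11 and 5.02 in group 2. It differed by 0.91 ± 0.19 (adjusted p = 0.0536), and by 0.77 and 0.62 on its other probes. SLC25A6, another ADP/ATP carrier, had 4 probes between 0.62 and 0.76, none past the test.

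SLC25A14, akin to uncoupling proteins, differed by 0.90 ± 0.21 (adjusted p = 0.0608) and by 0.77 and -0.79 on further probes. SLC25A15 exchanges ornithine across the inner membrane. It had signals of -4.41 and -4.36 in group 1, against -5.04 and -4.70 in group 2, a difference of 0.49 (adjusted p = 0.195), or 0.32 without group 2 replicate 1. SLC25A36 differed by 0.53, the S-adenosylmethionine carrier SLC25A26 by 0.31 and SLC25A32 by 0.29. The aspartate-glutamate carrier SLC25A13 had 2.06 and 2.13 in group 1, against 2.97 and 2.25 in group 2, a difference of -0.52 ± 0.31 (adjusted p = 0.287). The first group 2 array set much of it, as the difference was -0.16 without group 2 replicate 1 and -0.88 (adjusted p = 0.0431) without group 2 replicate 2. The glutamate carrier SLC25A22 differed by -0.25. SLC25A46, a protein of the outer mitochondrial membrane, had -1.60 and -1.31 in group 1, against -0.37 and -0.85 in group 2, a difference of -0.85 (adjusted p = 0.103). SLC25A46 is on chromosome Z, where group 2 replicate 1 stood high, and its difference was -0.61 without that array.

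Among carriers of metals and haem 1 of 12 passed the test, in the lower direction, against 3.92% of all genes. Their median difference was -0.29 (-0.51 with median scaling), and 4 of the 12 lay above 0, where 58.5% of all genes did. SLC41A2 had signals of -0.11 and -0.36 in group 1, against 1.28 and 0.89 in group 2. Both group 1 arrays lay below both group 2 arrays, and the difference was -1.32 ± 0.25 (limma, adjusted p = 0.0435). Its level was 2.50-fold higher in group 2. The call was lost with the replicate block (adjusted p = 0.0554), and the difference was -1.13 without group 2 replicate 1.

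Zinc carriers made up 6 of these 12 genes, and 0 passed on the brightest probe. SLC39A13, which moves zinc towards the cytosol, differed by -0.81 (adjusted p = 0.0655) and SLC39A9 by -0.72 (0.120), with -0.88 and -0.52 on its other probes. The exporters into vesicles gave -0.55 for SLC30A5, which is Z-linked, -0.45 for SLC30A4, -0.28 for SLC30A6 and -0.23 for SLC30A7. Among the 5 probes of SLC30A4 the dimmest was called lower (-1.29 ± 0.23, adjusted p = 0.0407), and the others ranged up to 0.37.

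Iron and haem carriers lay near 0. SLC40A1, ferroportin, through which cells export iron, had signals of 3.69 and 3.58 in group 1, against 3.52 and 3.64 in group 2. Its arrays overlapped, and the difference was 0.06 with a 95% interval of -0.47 to 0.58, or -0.16 with median scaling. Its other probes ranged from -0.51 to 1.18, none past the test. SLC48A1, which moves haem out of lysosomes, had 2.42 and 2.33 in group 1, against 2.18 and 2.17 in group 2, a difference of 0.20 (-0.02 with median scaling). SLC11A1, the metal carrier of macrophage phagosomes, differed by 0.12, the iron importer SLC11A2 by 0.02 and SLC31A2, of the copper carrier family, by -0.31.

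Bile acid, organic ion and drug carriers gave 0 calls among 8 genes, where 9.67% of all genes were called. Their median was 0.28 (0.07 with median scaling). At an unadjusted p under 0.05 there were 2 higher and 1 lower, against 19.1% and 12.5% of all genes. SLC51A, a subunit of the transporter that exports bile acids across the basal membrane, had signals of 2.11 and 2.66 in group 1, against 3.66 and 3.33 in group 2. The groups did not overlap, and its probes differed by -1.12 ± 0.29 (limma, adjusted p = 0.0719) and -1.54 ± 0.41 (0.0751). SLCO1C1, known in mammals to carry thyroxine, had -4.18 and -4.95 in group 1, against -5.88 and -6.38 in group 2, where it was not well above background. The group 1 mean was at least 2.19-fold that of group 2, a bound that leaves out the spread between arrays. SLCO1C1 did not pass (limma, adjusted p = 0.0600). Its probe passed the filter through group 1, where it was high. The drug and cation exporters SLC47A2 and SLC47A1 differed by 0.73 and 0.14, the prostaglandin carrier SLCO2A1 by 0.43, SLCO4A1 by 0.38, SLC22A4 by 0.19 and SLC10A7 by -0.22. All 5 probes of SLCO4A1 lay above 0, from 0.19 to 1.03.

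Monocarboxylate carriers move lactate, pyruvate and ketone bodies with protons. SLC16A1, the main one of many tissues, had signals of 4.12 and 4.19 in group 1, against 3.54 and 3.76 in group 2, a difference of 0.51 ± 0.21 that did not pass (limma, adjusted p = 0.160). Its probes differed in size. A second bright probe gave 0.25, while the dimmer pair was called higher with 1.70 ± 0.22 (adjusted p = 0.0281) and 1.77 ± 0.30 (0.0382). On the mean over its probes SLC16A1 passed. SLC16A7, not well above background in group 2, had -5.27 and -4.83 in group 1, against -5.81 and -5.80 in group 2. Its group 1 mean was at least 1.53-fold that of group 2, a bound that leaves out the spread between arrays. SLC16A7 did not pass (limma, adjusted p = 0.105), and its probe passed the filter through group 1. SLC16A9 had -3.61 and -3.74 in group 1, against -1.80 and -2.93 in group 2, with group 2 arrays 1.13 apart and a difference of -1.31 (adjusted p = 0.106). That difference was -0.75 without group 2 replicate 1 and -1.87 (adjusted p = 0.0171) without group 2 replicate 2. SLC16A3 differed by 0.16, and its arrays overlapped.

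**Figure D3:**
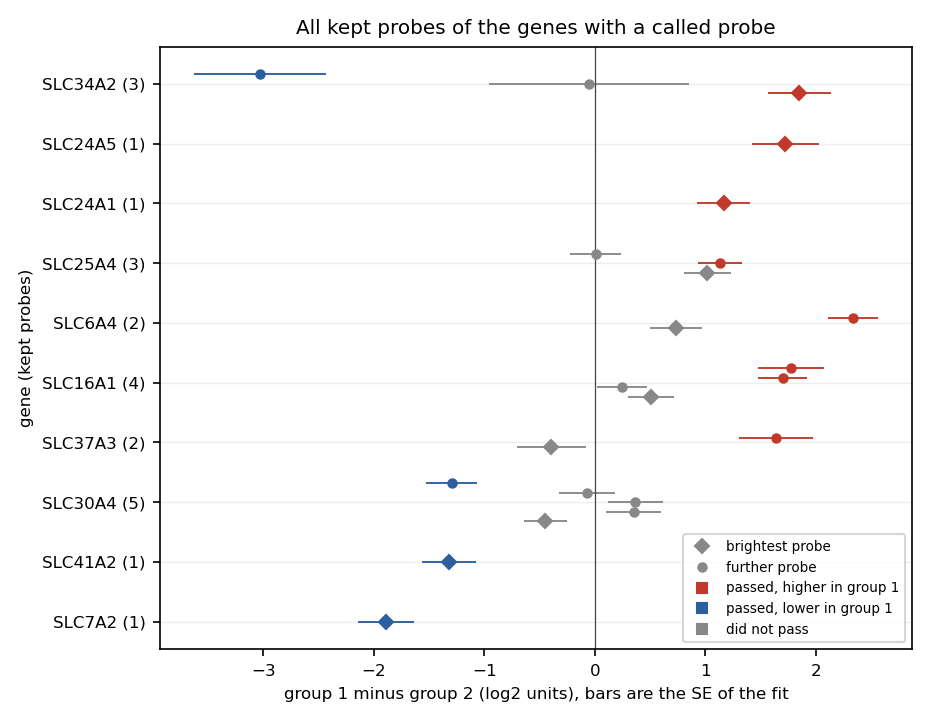
Difference between group 1 and group 2 in log2 units (x axis) for every kept probe of the 10 SLC genes with at least 1 called probe (y axis, number of kept probes in brackets), with the SE of the fit. Diamonds are the brightest probes, circles further ones, red and blue probes passed the test. SLC34A2 has called probes on both sides of 0, and SLC16A1 has its called probes at 1.70 and 1.77 beside 0.51 for the brightest.

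Probes of a gene often differed, so the choice of probe bears on single genes. The 76 genes had 161 kept probes, of which 8 were called higher and 4 lower, in 10 genes. The share of all probes called is not given, so these counts are not set against the array. Among the called probes, those of SLC6A4 and SLC37A3 and the higher one of SLC34A2 passed the filter through group 1 only. The lower one of SLC34A2 passed it through group 2 only. All probes had the same sign in 29 of the 48 genes with more than 1, and 28 genes had a single one, among them 4 of the 5 called genes. Differences of SLC25A14 ran from -0.79 to 0.90 over its probes and those of SLC10A7 from -0.33 to 0.94.

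Ion exchangers for bicarbonate, chloride, sulfate and protons had 0 calls among 7, where 9.67% of all genes were called. Their median was 0.42 (0.21 with median scaling). An unadjusted p under 0.05 was met by 2 higher and 1 lower, against 19.1% and 12.5% of all genes. The scaffold gene SLC9A3R1 had signals of 4.87 and 4.94 in group 1, against 4.10 and 3.50 in group 2. Its probes differed by 0.98 to 1.11, the brightest by 1.10 ± 0.28 (limma, adjusted p = 0.0688). The anion exchanger SLC4A2, which acts in bile secretion, differed by 0.99 (adjusted p = 0.0855). SLC26A5, the motor protein prestin of mammalian hearing, had 1.20 and 1.31 in group 1, against 2.45 and 2.04 in group 2, a difference of -0.99 ± 0.24 (adjusted p = 0.0640). The anion exchanger SLC26A6 differed by 0.55 with group 1 arrays 1.43 apart, the potassium-chloride carrier SLC12A7 by 0.42, and the sodium-proton exchangers SLC9A8 and SLC9A9 by 0.28 and -0.01.

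Nucleotide sugar carriers supply the Golgi and the endoplasmic reticulum with substrates for glycosylation. None of 7 passed the limma test, where 9.67% of all genes did. An unadjusted p under 0.05 was met by 2 higher and 1 lower, against 19.1% and 12.5% of all genes. SLC35A3, which carries UDP-N-acetylglucosamine, had signals of -0.16 and 0.34 in group 1, against 1.25 and 1.46 in group 2. It differed by -1.27 ± 0.26 (limma, adjusted p = 0.0515), and its other probe by -0.19. SLC35E3 had 3.65 and 3.41 in group 1, against 2.62 and 2.34 in group 2, a difference of 1.05 ± 0.23 (adjusted p = 0.0548). Its dimmer probes ranged from -0.46 to 0.12. The GDP-fucose carrier SLC35C1 differed by 0.67, SLC35C2 by 0.28, SLC35G2 by 0.15, the CMP-sialic acid carrier SLC35A1 by 0.02 and SLC35B1 by -0.54. Dimmer probes reached the other sign, with -0.10 for SLC35C1, -0.54 for SLC35C2, -0.23 for SLC35G2 and 0.23 for SLC35B1.

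Vitamin carriers had 0 calls among 4, where 9.67% of all genes were called. SLC46A3, a lysosomal member of the folate carrier family, had signals of -0.98 and -1.04 in group 1, against -0.16 and 0.17 in group 2, a difference of -1.01 ± 0.22 (limma, adjusted p = 0.0559). SLC19A1, the reduced folate carrier, had 2.82 and 2.69 in group 1, against 2.29 and 1.92 in group 2, a difference of 0.65 (adjusted p = 0.129). Its other probes ranged from -0.09 to 0.72. The proton-coupled folate carrier SLC46A1 differed by 0.37 and the ascorbate carrier SLC23A2 by -0.03.

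In all, 8 SLC genes had an adjusted p from 0.05 to 0.06, 4 above 0 and 4 below. They were SLC6A9, SLC35E3, SLC25A4 and SLC25A3 above, and SLC2A2, SLC35A3, SLC37A4 and SLC46A3 below. Over all genes, 68.1% had groups that did not overlap on the 4 arrays. The share of all genes in this range of adjusted p is not given. The groups of these 8 SLC genes did not overlap either, which adds little, as they were picked by their p. Of these, SLC6A9, SLC25A3, SLC25A4 and SLC46A3 passed with either group 2 array left out, SLC35A3 and SLC35E3 without replicate 1 and SLC2A2 without replicate 2. Further genes passed without group 2 replicate 1, namely SLC18A3, SLC25A14, SLC38A4, SLC39A13, SLC39A9, SLC7A1, SLC9A3R1 and SLCO1C1. For SLCO1C1 this rests on a single group 2 signal not well above background, and its probe passed the filter through group 1. Without group 2 replicate 2, SLC16A9, SLC17A9, SLC25A13, SLC25A46, SLC25A6, SLC26A5, SLC2A1, SLC4A2 and SLC9A3R1 passed as well. The number called is thus sensitive to the setting, as the plot of adjusted p by processing setting shows.

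**Figure D4:**
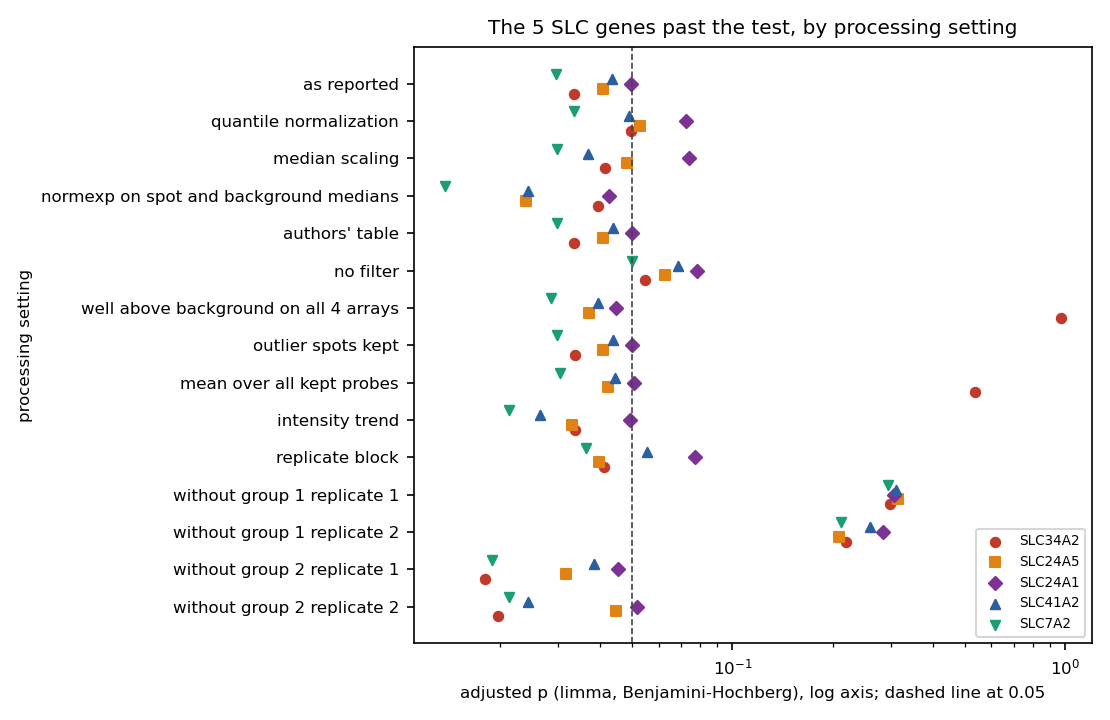
Adjusted p of limma (x axis, log scale, dashed line at 0.05) for the 5 called SLC genes under each processing setting (y axis). SLC7A2 lies left of the line except without the filter and without either group 1 array, SLC24A1 lies close to it, and all 5 move right of it when either group 1 array is left out.

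The spread between replicate arrays limited these comparisons, mostly through group 2. Over the 76 genes the median absolute difference between arrays was 0.13 in group 1 and 0.30 in group 2, close to 0.15 and 0.31 over all genes. The group 2 arrays were farther apart than those of group 1 for 48 of the 76 genes, or 63.2%, against 69.2% of all genes. Beside SLC6A9, the genes farthest apart in group 2 were SLC47A1 (1.26), SLC45A2 (1.25), SLC35G2 (1.21), SLC16A9 (1.13) and SLC2A1 (1.13). In group 1 SLC26A6 was 1.43 apart. The smallest p that an exact permutation test, two-sided, allows for 1 gene in this design is 0.333. Of the Z-linked members, SLC30A5 had 2.48 on group 2 replicate 1 and 2.33 on replicate 2, SLC25A46 -0.37 and -0.85, SLC24A2 -2.97 and -2.81, and SLC45A2 -3.88 and -2.63. The first array was thus the higher one for 2 of the 4.

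**Figure D5:**
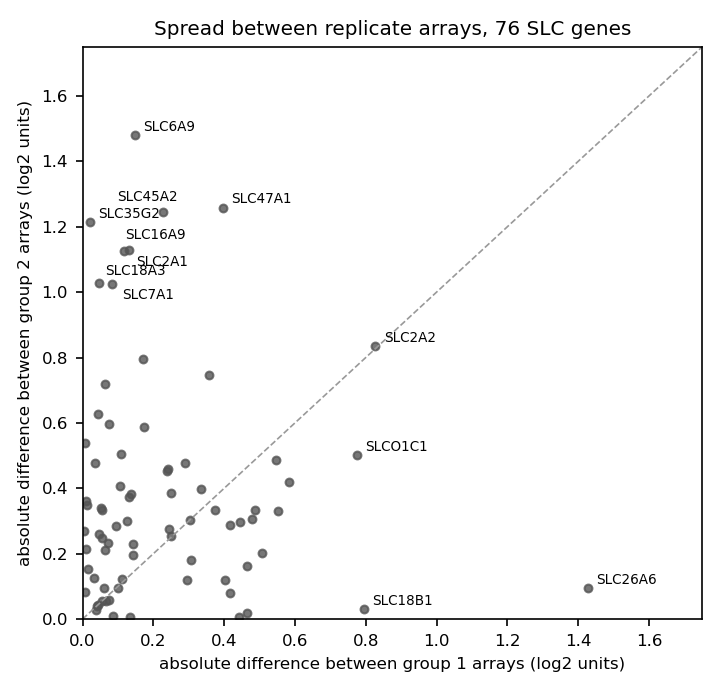
Absolute difference between the group 1 arrays (x axis) and between the group 2 arrays (y axis), both in log2 units, for each of 76 SLC genes. The dashed line marks equal spread, and 48 genes lie above it, with SLC6A9 highest at 1.48.

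A total of 12 SLC genes were not measured by the filter. For 8 no probe was well above background on any array, among them SLC16A8, SLC22A7, SLC26A3, SLC5A7, SLC6A2, SLC8A3 and SLC9A3. SLC17A6 and SLC22A5 had a probe above it on group 1 replicate 2 only, and SLC1A2 and SLC35D2 on group 2 replicate 2 only. SLC22A7 carries organic anions in mammalian liver. Of a set of 16 SLC genes with known roles in liver, 8 were named on the array and 7 measured, and the bile acid carrier SLC10A1 and the fatty acid carriers SLC27A2 and SLC27A4 were not analysed here.

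Other transport genes were set beside these, namely ABC transporters, aquaporins and subunits of the sodium pump, which builds the sodium gradient many carriers use. Of 15 measured, 0 passed the limma test, where 9.67% of all genes did. An unadjusted p under 0.05 was met by 5 higher and 0 lower, against 19.1% and 12.5% of all genes. Their median difference was 0.51 and 14 lay above 0 (13 with median scaling), against 58.5% of all genes. The water channel AQP1 had signals of -3.67 and -3.68 in group 1, against -4.55 and -5.39 in group 2, a difference of 1.30 ± 0.34 (limma, adjusted p = 0.0740). The sodium pump subunit ATP1B1 differed by 0.85 (adjusted p = 0.0663). AQP9, the glycerol channel of mammalian liver, differed by -0.33 ± 0.35 with overlapping arrays, the exporter ABCB1 by 0.35 and ABCC4 by 0.0038.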

How the data were processed

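Per the file headers, the authors' scanner files hold an intensity for each spot. Agilent Feature Extraction, version 11.5.1.1, wrote them and took off the background in the processed signal. Per the labels' protocols, 200 ng of pooled RNA from 50 mg of tissue was labelled with Cy3. The deposited series table holds log2 values. Set against the scanner values, each column was the log2 signal minus the 75th percentile, centred per probe (Pearson r across probes rounds to 1.00 on every array, column medians 0.084, 0.016, -0.094 and -0.022), which settles its scale, centring and direction. It served as an alternative.

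As main values the processed signals were put on a log2 scale relative to the 75th percentile of the array, taken over its 43803 noncontrol spots (978 and 1450 intensity units on the group 1 arrays, 1170 and 1278 on those of group 2). Outlier spots (8 to 25 per array) were set to missing, no spot was saturated, and spots of 50 repeated probes were averaged. Arrays carry no read depth, so their number limits the precision. Signals were well above background for 72.3% to 80.2% of spots. Of 43603 probes 33869 passed the filter. Probes were named by unversioned RefSeq accession through a GRCg7b gene table, which named 11935 (27.4%). The array design is older (galGal3), so no coordinates are given, and no sequences are shown.

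The comparison used lmFit and eBayes of limma 3.58.1, run in R 4.3.3 (2 residual and 2.60 prior degrees of freedom), tested on simulated data. Bounds of at least N-fold divide the brighter group's mean by a mean over the dim arrays. Each dim array counts with its lowest well-above-background signal or with the probe's signal if that is higher. These bounds leave out the spread between arrays and are not confidence limits. Genes named with values on each array are the 5 called ones, the largest difference of each sign in every substrate class with at least 3 genes, and a liver set, 27 in all. The other members are given by their difference, and some with array values chosen after these were seen. The members and lists were chosen with earlier results of these data known. Of all genes 5.75% were called higher and 3.92% lower, with a median difference of 0.14. The marker lists for endothelial and stellate cells gave 3 higher of 6 (median 1.33) and T and B lymphocytes 1 higher of 9 (1.02). Macrophages and heterophils gave 1 higher and 1 lower of 7 (0.50). Kidney tubule and bile duct gave 0 higher and 1 lower of 4 (0.22), and hepatocytes 0 of 9 (0.05). Alternatives covered scaling, background correction (normexp with an offset of 50 on the median signals of spot and background), filters, outlier spots, the mean over probes, an intensity trend, the replicate block and leaving out each array. Results on a few single genes are not reported here.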

Additional observations from a re-analysis of the deposited data

How the results depend on the processing

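The counts of called SLC genes moved with most settings. Against 3 higher and 2 lower, there were 1 and 3 after quantile normalization, 2 and 10 with median scaling, 10 and 10 with normexp, 5 and 5 with probes well above background on all 4 arrays, and 9 and 9 with an intensity trend. The share of all genes called also moved, from 9.67% to 8.42%, 10.4%, 14.5%, 10.8% and 15.6% in that order. For SLC genes it went from 6.58% to 5.26%, 15.8%, 26.3%, 13.5% and 23.7%. Without the filter 0 and 0 passed limma, when 2.9% of all genes did, with 16 and 15 at an unadjusted p under 0.05. With 1 array left out the counts ranged from 0 to 11 higher and from 0 to 9 lower. Leaving out a group 1 array gave 0 and 0, and leaving out a group 2 array gave 11 and 8 or 9 and 9. The authors' table called the same 5 genes, and 4 of the 5 remained with outlier spots kept, 3 after quantile normalization and 3 with the mean over probes. The correlation of deviations between arrays of the same number was 0.03 and the labels do not tie the numbers together, so the arrays share only a number. With that replicate block 4 SLC genes were higher and 1 lower, when 6.16% of all genes were called, and 3 of the 5 remained. The SLC median stayed between 0.01 and 0.13 under the other alternatives but was -0.083 with median scaling. Of the 15 other transport genes 0 to 1 were called under the settings with all 4 arrays, where 2.9% to 15.6% of all genes were called. SLC7A6OS and SLC9A3R1, left out after the data were seen, left the 3 higher and 2 lower calls as they were. Among genes named by rule the sign turned for SLC34A2 with probes well above background on all 4 arrays (-0.050) and with the mean over probes (-0.41), for SLC40A1 with median scaling (-0.16) and without group 1 replicate 1 (-0.00039) or group 2 replicate 1 (-0.0060, up to 0.12 with 1 array left out), for SLC48A1 with median scaling (-0.017) and for SLC2A1 without group 2 replicate 1 (-0.091, and from there to 1.03 with 1 array left out). The cause was not tested. All arrays share a slide, on which a group cannot be told apart from its positions.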
